A study of Mus musculus with 18 samples.

Results

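The Bcl2 family of apoptosis regulators was examined in the kidney of stressed mice through 10 genes chosen by name, Bcl2, Bcl2l1, Mcl1, Bax, Bak1, Bcl2l11, Bbc3, Pmaip1, Bid and Bad, out of 32675 genes listed. All samples were right kidneys of wild type male C57BL/6 mice labelled 6-week, with 6 mice in each of 3 groups. Ctrl mice were not defeated. PBS mice went through chronic social defeat stress (CSDS), repeated attack by aggressive CD-1 mice, with daily injection of phosphate-buffered saline, and FLX mice went through the same stress with daily injection of fluoxetine, a serotonin reuptake inhibitor used as an antidepressant. No injection of Ctrl mice is mentioned, so defeat and injection cannot be told apart in comparisons with Ctrl, and each group stands for a single stress protocol in 1 sex. Values are FPKM, fragments scaled for transcript length and library size, a level that can be compared between genes because it is per length.

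Bcl2 family proteins decide at the outer mitochondrial membrane whether a cell releases cytochrome c and starts its caspases. Pro-survival members hold the pore-forming effectors Bax and Bak1 in check, and the BH3-only members, which share a single short domain, either block the pro-survival proteins or activate the effectors directly. In the kidney the family is known for its part in tubule cell death after loss of blood flow or toxic injury, and Mcl1 protein is known for its fast turnover.

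Mcl1 and Bcl2l1 were the members that rose in PBS versus Ctrl, and the bases before their RefSeq start sites (GRCm38.p6) are printed here because the results turn on these genes. Each run holds 250 bases, 5′ to 3′ on the gene's strand, and capitals mark a GC box. The Mcl1 window is chr3:95658471-95658720 on the plus strand, and the Bcl2l1 window, the most upstream of 3 listed for that gene, is chr2:152831729-152831978 on the minus strand.
Mcl1: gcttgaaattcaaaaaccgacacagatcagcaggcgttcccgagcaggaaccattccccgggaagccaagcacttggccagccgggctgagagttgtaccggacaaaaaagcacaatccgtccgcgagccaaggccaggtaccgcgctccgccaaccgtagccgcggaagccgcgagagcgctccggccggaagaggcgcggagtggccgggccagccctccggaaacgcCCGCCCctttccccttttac
Bcl2l1: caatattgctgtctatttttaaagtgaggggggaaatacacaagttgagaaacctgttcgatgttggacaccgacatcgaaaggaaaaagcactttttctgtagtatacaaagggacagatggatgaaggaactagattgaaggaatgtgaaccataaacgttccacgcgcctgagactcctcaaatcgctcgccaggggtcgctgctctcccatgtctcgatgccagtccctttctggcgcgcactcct
The Mcl1 stretch was 64.4% G or C and held 1 GC box (GGGCGG, here on the opposite strand, so printed as its complement), 14 bases before the start. The Bcl2l1 stretch was 47.6% G or C and held none of 6 motifs searched on both strands, namely the GC box, CRE (TGACGTCA), AP-1 (TGANTCA), E-box (CACGTG), STAT (TTCNNNGAA) and TATA box (TATAAA). Among 32851 promoter stretches of this length, 32.7% held a GC box, 1.55% a CRE, 6.75% an AP-1 motif, 6.02% an E-box, 7.02% a STAT motif and 12.4% a TATA box. A window was listed for 9 of the 10 members. An E-box lay 3 bases before the start of Bax and 58 bases before 1 of the starts of Bbc3, and no member held a CRE, AP-1, STAT or TATA motif in these windows. These matches describe letters in the sequence and were not measured as binding sites.

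Depth differed between mice. The deposited counts summed to between 48928823 and 52073640 in FLX replicates 3 to 6 and to between 72149987 and 79061296 in the other 14 mice. PBS replicate 6 stood apart, with a summed level of 9 neutrophil genes of 65.95 FPKM against 7.20 to 26.15 in the other PBS mice, and 363.0 FPKM of 4 tubule injury genes against 99.72 to 156.6. The study removed 1 PBS mouse with excessive expression of inflammatory factors, and PBS replicate 6 was taken to be that mouse. Results are given over the other 5 PBS mice and, where a result turns on it, over all 6 mice. Ctrl replicate 3 departed from its group in several members, as described with them. Markers of proximal tubule, loop of Henle, distal tubule, collecting duct and podocytes were detected in the mice of all groups, with proximal tubule sums of 876.3 to 1130 FPKM in Ctrl. In bulk kidney RNA, fewer cells of a type and less RNA per cell cannot be told apart.

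The members were transcribed at very different levels in undefeated kidney. Bax, the effector, had the highest median at 30.8 FPKM, with the 6 Ctrl mice between 15.6 and 37.2. Mcl1, a pro-survival protein, followed with a median of 27.8 FPKM and Bcl2l1, which encodes Bcl-xL, with 18.5. Bad, a BH3-only protein controlled by phosphorylation, had a median of 17.0 FPKM and Bid, the BH3-only link from death receptors to mitochondria, 13.2. Bak1, the other effector, had 6.26 FPKM. The rest were low, with medians of 2.36 FPKM for Pmaip1 (Noxa, a partner of Mcl1), 1.04 for Bbc3 (Puma), 0.849 for Bcl2l11 (Bim) and 0.651 for Bcl2, the founding pro-survival member. The ranges of neighbours in this order did not overlap between Mcl1 and Bcl2l1, Bid and Bak1, Bak1 and Pmaip1, and Pmaip1 and Bbc3. The other neighbours overlapped, and the order of Bax and Mcl1 was not fixed, since Bax exceeded Mcl1 in 4 of 6 Ctrl mice but in only 5 of all 18 mice.

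**Figure D1:**
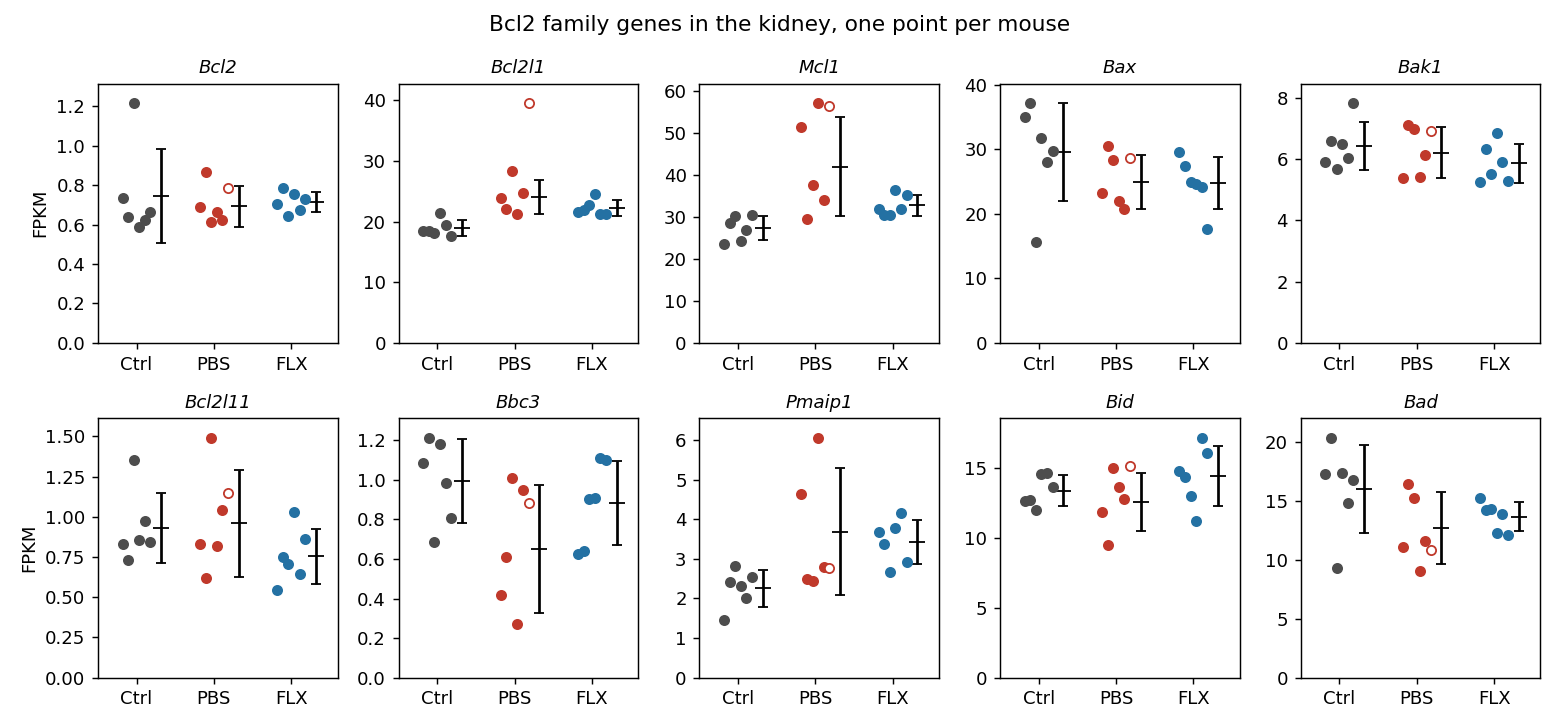
FPKM of the 10 members on a linear axis that starts at 0, with 1 point per mouse in the order of replicate numbers, and bars for the mean and SD over 6 Ctrl, 5 PBS and 6 FLX mice. The open point is PBS replicate 6, which is outside the mean and SD. Mcl1 reached 51.4 and 57.3 FPKM in PBS replicates 1 and 4, and Ctrl replicate 3 had the lowest Bax and the highest Bcl2 of its group.

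PBS versus Ctrl asks what defeat stress together with daily saline injection changed. Of the 10 members, 2 rose and none fell at an adjusted p under 0.05 (edgeR's quasi-likelihood test with Benjamini-Hochberg adjustment over 20251 genes), where 3.81% of all genes tested passed in either direction and 2.14% were higher. With all 6 PBS mice the same 2 members passed, against 4.28% of genes. Both were pro-survival genes, Mcl1 and Bcl2l1. The members were chosen with earlier results of these data known, so their counts are no test of enrichment. A further 2 members, Pmaip1 and Bbc3, had an unadjusted p under 0.05, so that 4 of 10 did, against 17.9% of all genes. The median log2 fold change of the members was -0.07 against -0.01 for all genes, and all 10 members passed the filter on low counts. No member reached the study's own threshold of a log2 fold change above 1 or below -1 with an unadjusted p under 0.05, which 3.28% of genes passed, and no member had groups without overlap, which 3.52% of genes had.

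Mcl1 (ENSMUSG00000038612, GRCm38 chromosome 3, 95658788 to 95663176) was at 23.6 FPKM in the lowest, 27.8 in the median and 30.5 in the highest Ctrl mouse. PBS replicates 1 to 5 had 51.4, 29.7, 37.6, 57.3 and 34.2 FPKM, and PBS replicate 6 had 56.6. In FLX the lowest, median and highest values were 30.4, 32.01 and 36.6 FPKM. PBS replicate 2 lay inside the Ctrl range and the other PBS mice lay above every Ctrl mouse, replicates 1, 4 and 6 by a wide margin. The mean went from 27.4 ± 2.98 FPKM (SD, n = 6) to 42.0 ± 11.8 (SD, n = 5), 1.55-fold or 0.63 on the log2 scale (standard error, SE, 0.14), with an adjusted p of 0.0182 by edgeR. An exact two-sided permutation test of mean log2(FPKM + 0.1) gave p = 0.00649, where 0.00216 is the smallest p it can give. With all 6 PBS mice the log2 fold change was 0.70 (adjusted p = 0.0109). The call was lost without PBS replicate 1 (0.55, adjusted p = 0.0676) or PBS replicate 4 (0.47, adjusted p = 0.0536), and when only the Ctrl and PBS mice were fitted (adjusted p = 0.0644).

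Bcl2l1 (ENSMUSG00000007659, GRCm38 chromosome 2, 152780668 to 152831728) had a lower and more even spread. Ctrl mice were at 17.7 FPKM (lowest), 18.5 (median) and 21.4 (highest), and PBS replicates 1 to 5 at 23.9, 22.0, 28.4, 21.3 and 24.7 FPKM. PBS replicate 6 stood highest of all 18 mice at 39.6 FPKM. Of the 5 PBS mice, replicate 4 alone fell below the highest Ctrl mouse. The mean was 18.9 ± 1.33 FPKM (SD, n = 6) in Ctrl and 24.0 ± 2.78 (SD, n = 5) in PBS, 1.27-fold or 0.35 on the log2 scale with an SE of 0.07, adjusted p = 0.0122 by edgeR and p = 0.00649 by the exact permutation test. With PBS replicate 6 it was 0.48 (adjusted p = 0.0193), and leaving out any 1 mouse kept it past the threshold. The table gives 1 value per gene, so the long and the short form of Bcl2l1, which act in opposite directions, were not separated. Bcl2, the third pro-survival gene, was at 0.745 ± 0.236 FPKM in Ctrl (SD, n = 6) and 0.692 ± 0.104 in PBS (SD, n = 5), a log2 fold change of -0.09 with a 95% interval of -0.42 to 0.24, which turned to 0.08 without Ctrl replicate 3.

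The effectors did not pass the test. Bax (chromosome 7, 45461697 to 45466898) ran in Ctrl from 15.6 FPKM in replicate 3 to 37.2 in replicate 2, with a median of 30.8. PBS replicates 1 to 5 had 23.2, 30.4, 28.4, 21.9 and 20.7 FPKM, so that the PBS mice lay between Ctrl replicate 3 and the upper Ctrl mice. The log2 fold change was -0.25 (95% interval -0.64 to 0.15, adjusted p = 0.535) and became -0.38 (adjusted p = 0.0889) without Ctrl replicate 3. Bak1 was at 6.42 ± 0.771 FPKM in Ctrl (SD, n = 6) and 6.21 ± 0.825 in PBS (SD, n = 5), with a log2 fold change of -0.05 (95% interval -0.26 to 0.17).

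Among the BH3-only genes, Pmaip1 and Bbc3 moved apart in the same mice. Pmaip1 ran from 1.46 to 2.81 FPKM in Ctrl (median 2.36), and PBS replicates 1 to 5 had 4.63, 2.49, 2.43, 6.06 and 2.80 FPKM. PBS replicates 1 and 4 were above every other mouse, and the remaining PBS mice, replicate 6 with 2.78 FPKM included, were inside the Ctrl range. The log2 fold change was 0.74 with an SE of 0.23 (adjusted p = 0.0852 by edgeR), which DESeq2 put past the threshold (adjusted p = 0.0252, where it called 7.91% of genes), as did leaving out PBS replicate 3 (0.86, adjusted p = 0.0418), while it was 0.45 (adjusted p = 0.289) without PBS replicate 4. Bbc3 ran from 0.685 to 1.21 FPKM in Ctrl (median 1.04), and PBS replicates 1 to 5 had 0.416, 0.609, 1.01, 0.270 and 0.948. Replicates 1 and 4 were thus the lowest of all 18 mice for Bbc3. The change was -0.62 on the log2 scale with an SE of 0.28 (unadjusted p = 0.0402, adjusted p = 0.252 by edgeR). Both genes are known p53 targets, and here their levels stood at opposite ends in these mice.

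Bad (chromosome 19, 6941861 to 6951899) had 17.2, 20.3, 17.4, 14.8 and 16.8 FPKM in Ctrl replicates 1, 2, 4, 5 and 6 and 9.29 in Ctrl replicate 3. PBS replicates 1 to 5 had 11.1, 16.4, 15.3, 9.04 and 11.6 FPKM, lower than Ctrl by -0.34 on the log2 scale with an SE of 0.17 (adjusted p = 0.327 by edgeR). Without Ctrl replicate 3 this was -0.46 (adjusted p = 0.0427), in a comparison where 8.27% of all genes then passed, and with all 6 PBS mice and without that Ctrl mouse it was -0.51 (adjusted p = 0.0262, with 8.52% of genes passing). Bid had 13.4 ± 1.11 FPKM in Ctrl (SD, n = 6) and 12.6 ± 2.05 in PBS (SD, n = 5), a log2 fold change of -0.09 (95% interval -0.34 to 0.17). Bcl2l11 had 0.932 ± 0.219 FPKM in Ctrl and 0.961 ± 0.332 in PBS, with a log2 fold change of 0.05 (95% interval -0.36 to 0.45) that turned to -0.15 without PBS replicate 3.

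**Figure D2:**
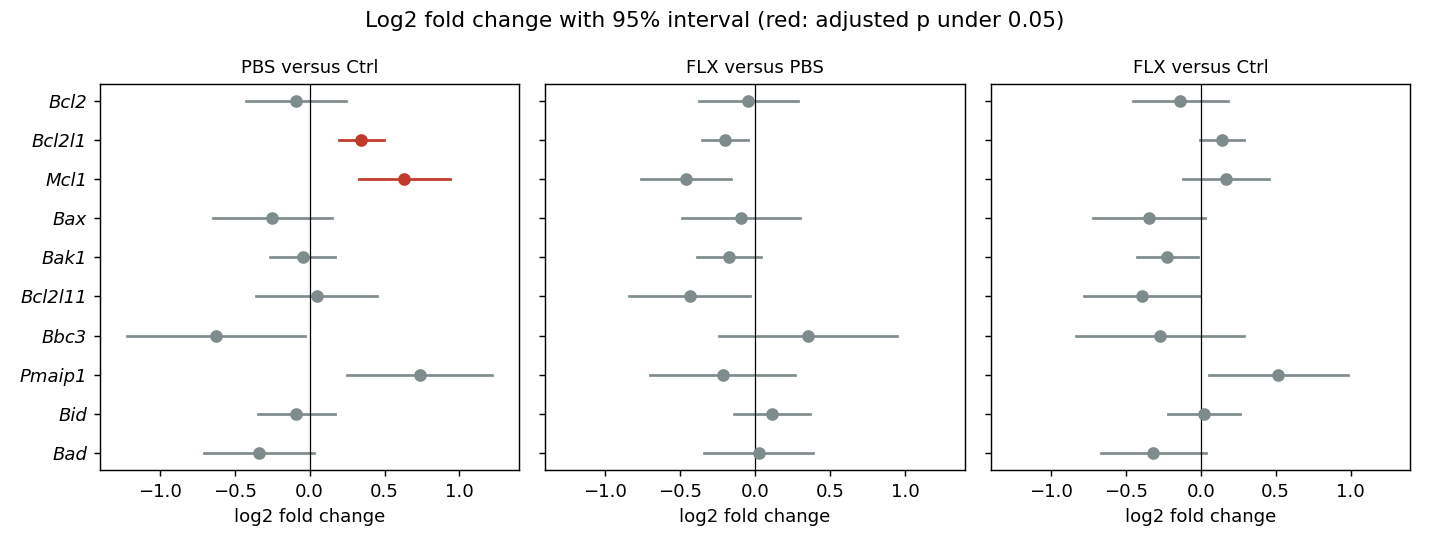
Log2 fold change of each member (x axis) with its 95% interval in PBS versus Ctrl, FLX versus PBS and FLX versus Ctrl, over 5 PBS mice. Red marks an adjusted p under 0.05, which Mcl1 (0.63) and Bcl2l1 (0.35) reached in PBS versus Ctrl and no member reached in the other comparisons.

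Levels of other gene groups are listed beside these members, and whether they moved together was not tested. The 12 immediate early genes, early responders to many stimuli, summed to 297.2 and 217.0 FPKM in PBS replicates 1 and 4, the mice with high Mcl1 and Pmaip1 and low Bbc3, against 65.78 to 131.0 in the other 3 of the 5 PBS mice, 101.2 to 153.8 in Ctrl and 112.5 to 122.8 in FLX. PBS replicate 6 had 56.6 FPKM of Mcl1 with an immediate early sum of only 141.8 FPKM, inside the Ctrl range. PBS replicate 2, with the lowest sum (65.78 FPKM), also had Bbc3 below every Ctrl mouse, at 0.609 FPKM. FLX replicate 5 had Pmaip1 above every Ctrl mouse, at 4.145 FPKM, with a sum of 112.5 FPKM. In PBS versus Ctrl, 2 of 12 immediate early genes, 3 of the 6 neutrophil genes tested, 1 of 4 tubule injury genes and 1 of 4 brown fat genes were called higher, against 2.14% of all genes, and 3 of 3 podocyte genes had an unadjusted p under 0.05 with none called. These lists were written with earlier results of these data known, so the counts are no test of enrichment. Neutrophil sums were 1.29 to 3.21 FPKM in Ctrl, 7.20 to 26.15 in the 5 PBS mice and 0.302 to 5.40 in FLX. Tubule injury sums were 55.78 to 81.92 FPKM in Ctrl, 99.72 to 156.6 in PBS and 75.15 to 101.3 in FLX. Clu made up most of these sums, with 53.63 to 79.21 FPKM in Ctrl and 94.37 to 152.9 in the 5 PBS mice. The rest of that list, Lcn2, Havcr1 and Krt20, overlapped between Ctrl and PBS. Macrophage sums overlapped at 43.08 to 49.98, 45.36 to 62.91 and 36.88 to 80.61 FPKM, and 0 of 5 macrophage and 0 of 7 lymphocyte genes were called. Podocyte sums were 16.89 to 23.86 FPKM in Ctrl, 20.30 to 29.48 in PBS and 20.08 to 31.43 in FLX. Brown fat sums ran from 0.116 to 56.06 FPKM in Ctrl, 4.40 to 654.4 in PBS and 2.03 to 311.1 in FLX, highest in PBS replicate 5, where Mcl1 was 34.2. No marker of these lists was at 0 in every mouse, and their part in the values of the members was not tested.

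**Figure D3:**
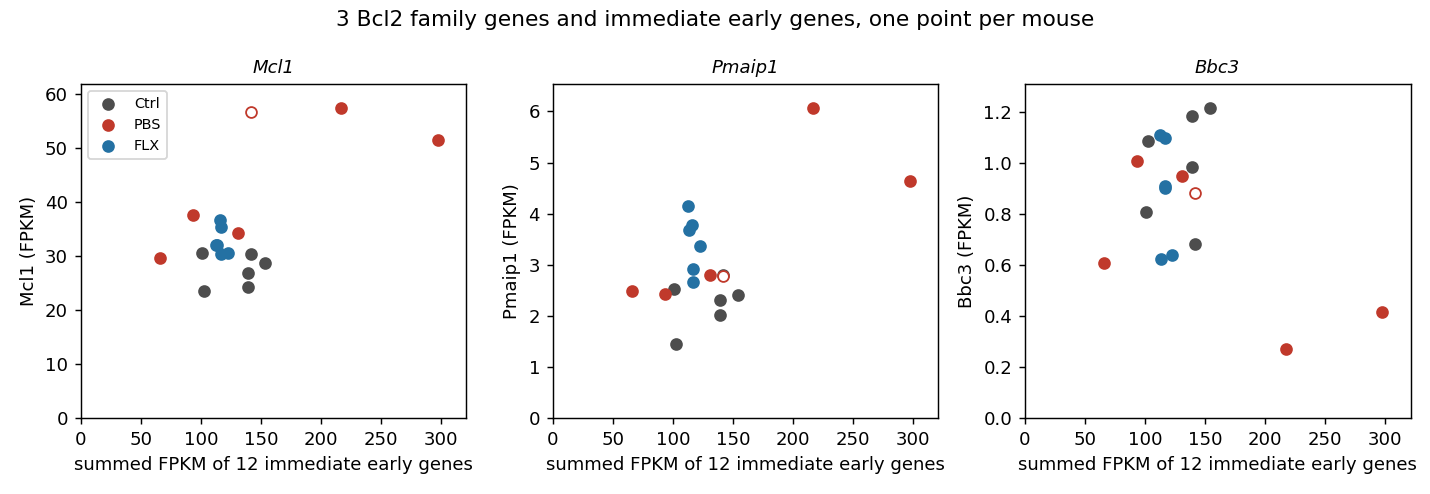
FPKM of Mcl1, Pmaip1 and Bbc3 (y axes) against the summed FPKM of 12 immediate early genes (x axis), with 1 point per mouse and PBS replicate 6 open. PBS replicates 1 and 4, with sums of 297.2 and 217.0 FPKM, had high Mcl1, the highest Pmaip1 and the lowest Bbc3, and the other mice lay between 65.78 and 153.8.

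FLX versus PBS asks whether fluoxetine changed what the defeated kidney expressed, and no member passed the test. The count was 0 of 10 by edgeR and 0 by DESeq2, where edgeR called 0.726% of all genes (0.557% with all 6 PBS mice) and DESeq2 3.06%, and 3 of 10 had an unadjusted p under 0.05 against 11.1% of all genes. The study's threshold was passed by 1.9% of genes and by no member, and 2.92% of genes and no member had groups without overlap. These 3 were Mcl1, Bcl2l1 and Bcl2l11, all with lower values in FLX. Mcl1 was at 32.8 ± 2.55 FPKM in FLX (SD, n = 6), a log2 fold change of -0.46 against PBS with a 95% interval of -0.76 to -0.16 (adjusted p = 0.164), and -0.53 (adjusted p = 0.0979) with all 6 PBS mice. DESeq2 gave an adjusted p of 0.0540. The PBS mice that lay above all FLX mice were replicates 1, 3, 4 and 6, and without PBS replicate 4 the difference was -0.30 (adjusted p = 0.442). Bcl2l1 was at 22.2 ± 1.28 FPKM in FLX, a log2 fold change of -0.20 (95% interval -0.35 to -0.05, adjusted p = 0.252), and -0.34 (adjusted p = 0.177) with all 6 PBS mice.

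Bcl2l11, a BH3-only activator of cell death, overlapped between the groups. FLX mice were at 0.542 FPKM (lowest), 0.728 (median) and 1.03 (highest), and PBS replicates 1 to 5 at 0.830, 0.623, 1.49, 0.819 and 1.04. The log2 fold change was -0.44 with an SE of 0.19 (adjusted p = 0.393 by edgeR). Bbc3 in FLX, at 0.881 ± 0.213 FPKM (SD, n = 6), was 0.35 above PBS on the log2 scale (95% interval -0.24 to 0.95). Within FLX, replicates 1 and 2, sequenced as deeply as the other groups, had 0.625 and 0.639 FPKM and FLX replicates 3 to 6 had 0.903 to 1.11. With only FLX replicates 1 and 2 the difference was -0.07, and the part of depth in it was not tested. Pmaip1 differed by -0.22 (95% interval -0.70 to 0.27), Bax by -0.10 (-0.49 to 0.30), Bak1 by -0.18 (-0.39 to 0.04), Bid by 0.11 (-0.14 to 0.37), Bad by 0.02 (-0.34 to 0.39) and Bcl2 by -0.05 (-0.38 to 0.29).

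FLX versus Ctrl compares fluoxetine-treated defeated mice with undefeated mice, and it shares mice with both other comparisons. Of 10 members, 0 passed, by edgeR or by DESeq2, where edgeR called 3.67% of all genes (1.77% with all 6 PBS mice) and DESeq2 9.91%. The study's threshold was passed by 2.24% of genes and by no member, and 3.4% of genes and no member had groups without overlap. Pmaip1, Bak1 and Bcl2l11 had an unadjusted p under 0.05, 3 of 10 against 20.4% of all genes. Pmaip1 was at 2.66 FPKM in the lowest, 3.52 in the median and 4.15 in the highest FLX mouse, and 5 of 6 FLX mice lay above every Ctrl mouse. Its log2 fold change was 0.52 (95% interval 0.06 to 0.98, adjusted p = 0.194 by edgeR), and the exact permutation test on FPKM gave p = 0.00433. The exact permutation test also gave p = 0.00649 for Mcl1 and for Bcl2l1, whose log2 fold changes on counts were 0.17 (95% interval -0.12 to 0.46) and 0.14 (-0.00267 to 0.289). FPKM put the median of all genes 0.06 higher in FLX than in Ctrl on the log2 scale, which the scaling of counts removed. These 30 permutation tests were not adjusted for their number, and the adjusted p values are those of the fit over all genes.

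Bax and Bad had lower values in FLX than in Ctrl, by -0.35 (adjusted p = 0.286) and -0.31 (adjusted p = 0.294) on the log2 scale, and Ctrl replicate 3 decided the call. Without it the differences were -0.48 (adjusted p = 0.0204) and -0.43 (adjusted p = 0.0290), where 15.4% of all genes passed, and with all 6 PBS mice in the model -0.48 (adjusted p = 0.0256) and -0.44 (adjusted p = 0.0404), where 10.4% passed. FLX replicates 1 to 6 had 29.5, 27.3, 25.0, 24.7, 24.2 and 17.7 FPKM of Bax, and the deeper replicates 1 and 2 were the higher ones. With only these mice in FLX the log2 fold change of Bax was -0.10 (adjusted p = 0.945) and that of Bad -0.16 (adjusted p = 0.896). Bak1 was at 5.85 ± 0.636 FPKM in FLX (SD, n = 6), a log2 fold change of -0.22 (95% interval -0.43 to -0.02, adjusted p = 0.205), and Bcl2l11 differed by -0.39 (95% interval -0.78 to -0.00155, adjusted p = 0.243). Bid (0.02, 95% interval -0.22 to 0.27), Bbc3 (-0.27, -0.83 to 0.29) and Bcl2 (-0.14, -0.45 to 0.18) complete the list.

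The shares of the roles in the family's summed FPKM describe the same values in another way, with no test. Pro-survival genes held 36.6% to 41.0% of the sum in 5 of the Ctrl mice and 51.2% in Ctrl replicate 3. They held 56.95%, 43.9%, 48.55%, 58.1% and 51.5% in PBS replicates 1 to 5, 59.4% in PBS replicate 6, and 43.8% to 50.6% in FLX. The PBS and FLX mice were therefore above 5 of 6 Ctrl mice, and Ctrl replicate 3 lay among the stressed mice. BH3-only genes held 26.9% to 30.0% in Ctrl, 21.6% to 25.7% in the 5 PBS mice and 23.8% to 30.5% in FLX, so that the Ctrl and PBS mice did not overlap on this share. The BH3-only sum itself overlapped, at 26.11 to 37.41 FPKM in Ctrl and 28.86 to 35.18 in the 5 PBS mice. The sum of pro-survival over effector FPKM was 1.26 in the median Ctrl mouse, 2.21 in the median of 5 PBS mice and 1.78 in the median FLX mouse. A sum is set mainly by Bax, Mcl1 and Bcl2l1, and transcript shares are not protein amounts. The ratio of Mcl1 to its partner Pmaip1 overlapped between the groups, with medians of 11.99 in Ctrl, 11.9 in PBS and 9.38 in FLX.

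**Figure D4:**
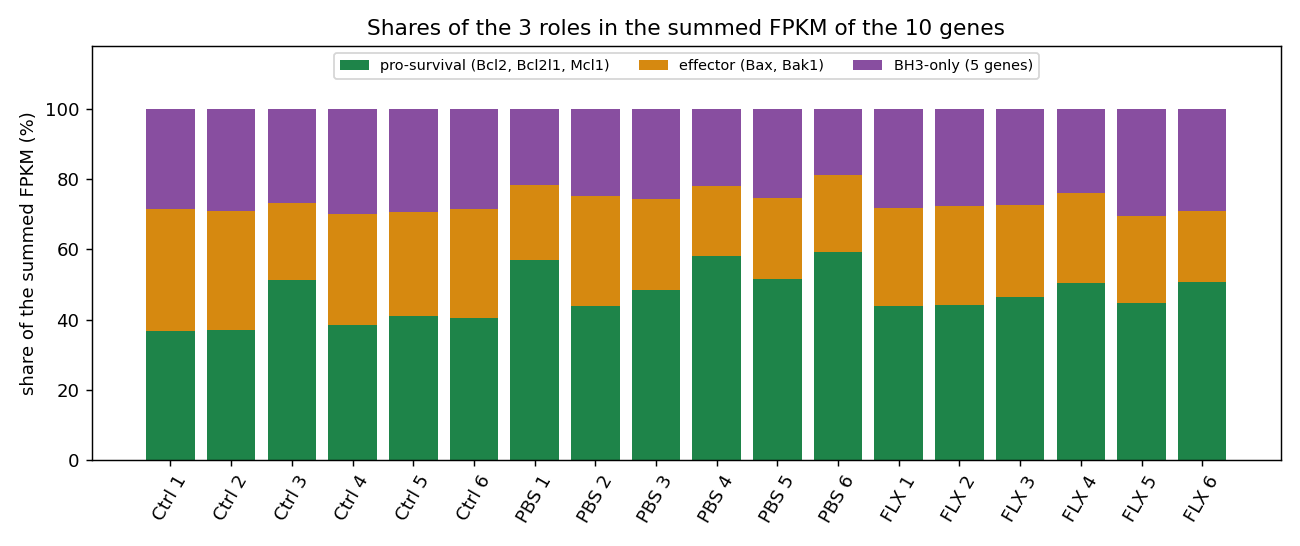
Share of the summed FPKM of the 10 members (y axis, percent) held by pro-survival, effector and BH3-only genes, with 1 stacked bar per mouse. The pro-survival share was 36.6% to 41.0% in the Ctrl mice other than replicate 3 (51.2%), and reached 58.1% in PBS replicate 4 and 59.4% in PBS replicate 6.

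Ctrl replicate 3 had the lowest Bax and the highest Bcl2 of all 18 mice. It was also the second highest for Bcl2l11 (1.35 FPKM) and the second lowest for Bad. Genes outside the family departed in this mouse as well, so these values are not particular to the members. Its collecting duct sum (80.26 FPKM) and blood sum (38.56 FPKM) were the lowest of the Ctrl mice and its proximal tubule sum (1130 FPKM) the highest, and their part in these values was not tested. Annotated genes overlap some members. Bax shares its strand with the protein-coding Gm45808, Bad lies against Gpr137 on the opposite strand, Bak1 against Ggnbp1 and Bid against Bcl2l13, and a miRNA and an antisense RNA lie within Bcl2. The libraries kept the strand, but how the counting used it was not stated, so reads of these partners may not be separated. Mcl1, Bcl2l1, Bcl2l11, Bbc3 and Pmaip1 have no such overlap.

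Of 15 further family genes, 13 were tested and 2 passed in PBS versus Ctrl, 1 in each direction, where 3.81% of all genes passed. That list was also written with earlier results of these data known. Bik, a BH3-only gene, had 8.61 ± 1.75 FPKM in Ctrl (SD, n = 6) and fell to 4.63 ± 1.19 in PBS (SD, n = 5), which edgeR put at -0.90 on the log2 scale with an SE of 0.19 (adjusted p = 0.0126). With all 6 PBS mice it was -0.94 (adjusted p = 0.00726). The FLX mean of Bik lay between the other means at 6.42 ± 0.923 FPKM. By mouse, FLX overlapped both Ctrl and PBS, and FLX versus PBS was not called (adjusted p = 0.460 by edgeR). Bcl2l13, a mitophagy receptor of the family, rose from 3.92 ± 0.311 to 5.12 ± 0.516 FPKM, or 0.39 on the log2 scale with an SE of 0.08 (adjusted p = 0.00942). All 6 mice gave 0.37 (adjusted p = 0.0121). It overlaps Bid on the opposite strand, and the part of that overlap in its value was not tested. Bnip3, a mitophagy gene induced by low oxygen, was lower in FLX than in PBS. It was the single call of that comparison among the 13 tested, where 0.726% of all genes passed. Every FLX mouse (55.6 to 61.2 FPKM) lay below each of the 5 PBS mice (65.7 to 88.4), as was so for 0.469% of all genes. The change was -0.50 on the log2 scale with an SE of 0.10 (adjusted p = 0.0244), and the call was lost without FLX replicate 1, 2 or 6 or PBS replicate 4 (adjusted p 0.0513 to 0.0879), with a replicate block (0.101) and when only FLX replicates 1 and 2 were kept (0.554). None of the 13 passed in FLX versus Ctrl by edgeR, where 3.67% of all genes did. Of the 13, 7 had an unadjusted p under 0.05 against 20.4% of all genes.

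The other further genes stayed short of the threshold. Bcl2l2 (Bcl-w, pro-survival) had 7.42 to 11.3 FPKM in Ctrl, 8.56 to 9.70 in PBS and 10.02 to 12.6 in FLX, so that every FLX mouse lay above every PBS mouse, replicate 6 included. Over 5 PBS mice, 2.45% of all genes did the same. FPKM put the median of all genes 0.08 higher in FLX than in PBS on the log2 scale. On counts, Bcl2l2 differed by 0.18 on the log2 scale in FLX versus PBS (adjusted p = 0.457) and by 0.24 in FLX versus Ctrl (unadjusted p = 0.0105, adjusted p = 0.117 by edgeR). Bok, an effector relative, ran from 6.36 to 21.2 FPKM over all mice and Bnip3l from 18.4 to 26.7. In PBS versus Ctrl, Bok differed by -0.58 on the log2 scale (adjusted p = 0.127), and Bmf, a BH3-only gene at 0.774 to 3.67 FPKM, by -0.72 (adjusted p = 0.0790), and -0.70 in FLX versus Ctrl (adjusted p = 0.0700). Bcl2l12 ran from 1.38 to 3.24 FPKM, Bcl2l14 from 0.120 to 0.929 and Bcl2l15 from 0 to 0.406, the last with -1.88 in PBS versus Ctrl (adjusted p = 0.131). The near-identical copies Bcl2a1a (0.0783 to 1.41 FPKM), Bcl2a1b (0.361 to 2.97) and Bcl2a1d (0.130 to 1.36), known from white blood cells, can share reads and are uncertain. Their highest values, for all 3 genes, were in PBS replicate 6. Bcl2l10 (up to 0.208 FPKM) and Hrk (up to 0.0408 FPKM) were too low to be tested.

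Of 20 executioners and inhibitors, from Cycs and Apaf1 to the caspases and their Birc inhibitors, 0 passed in any comparison. Of all genes, 3.81% passed in PBS versus Ctrl, 0.726% in FLX versus PBS and 3.67% in FLX versus Ctrl. With shares this small, 0 of 20 does not set the list apart. In the same order, 2, 1 and 1 had an unadjusted p under 0.05, against 17.9%, 11.1% and 20.4% of all genes. In PBS versus Ctrl the ends of the list were Birc3 (0.21, adjusted p = 0.578) and Casp2 (-0.24, adjusted p = 0.245). In FLX versus PBS they were Apaf1 (0.13, adjusted p = 0.799) and Birc3 (-0.33, adjusted p = 0.523), and in FLX versus Ctrl the low end was Diablo (-0.18, adjusted p = 0.345). Of 8 death receptor genes, 1 passed in PBS versus Ctrl and in FLX versus Ctrl, against 3.81% and 3.67% of all genes. This was Ripk1, a kinase of this pathway. It had 0.27 (log2) in PBS versus Ctrl with an SE of 0.07 (adjusted p = 0.0331) and 0.25 in FLX versus Ctrl (adjusted p = 0.0400). Its levels were 3.43 ± 0.173 FPKM in Ctrl, 4.12 ± 0.359 in PBS and 4.34 ± 0.163 in FLX. All PBS and FLX mice lay above every Ctrl mouse for Ripk1. Over 5 PBS mice, 1.77% of all genes did so in PBS and 2.67% in FLX. Leaving out Ctrl replicate 1, 2, 4 or 5, or PBS replicate 1, 3 or 4, ended its PBS versus Ctrl call (adjusted p 0.0538 to 0.106), as did upper-quartile scaling (0.0695), no filter (0.0506), limma on FPKM (0.0526 to 0.0557), the fit of only these groups (0.0851) and a replicate block (0.0862), and 15 of 28 alternatives in all. Its FLX versus Ctrl call was lost with all 6 PBS mice (adjusted p = 0.0525), and without any Ctrl replicate but 3, any FLX replicate but 4, or PBS replicate 1 (adjusted p 0.0504 to 0.0963). The largest differences of the rest were Fas (0.31) and Fasl (-0.54) in PBS versus Ctrl, Fasl (1.26) and Fas (-0.33) in FLX versus PBS, and Fasl (0.72) and Tradd (-0.33) in FLX versus Ctrl, with adjusted p between 0.203 and 0.814. Tradd passed in FLX versus Ctrl without Ctrl replicate 3 (adjusted p = 0.0117).

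In the p53 arm, which controls Bbc3, Pmaip1 and Bax, 3 of 17 genes rose in PBS versus Ctrl and none fell. Of all genes, 2.14% were called higher and 1.67% lower. The rest of the p53 list, with Trp53, the gene of p53 itself, was not called over 5 PBS mice. The list was written with earlier results of these data known, so its count is no test of enrichment. Cdkn1a, the cell cycle inhibitor p21, had 2.14 ± 0.698 FPKM in Ctrl (SD, n = 6) and rose to 9.99 ± 3.49 in PBS (SD, n = 5). This was 2.21 on the log2 scale with an SE of 0.25 (adjusted p = 0.000128). Every PBS mouse lay above every Ctrl mouse, as was so for 1.77% of all genes over 5 PBS mice. Cdkn1a was at 5.61 ± 1.73 FPKM in FLX, 1.29 above Ctrl on the log2 scale (adjusted p = 0.00733, and 0.0537 with all 6 PBS mice). Plk3, a stress kinase, rose by 2.36 (adjusted p = 0.0103) and was lower in FLX than in PBS by -2.21 (adjusted p = 0.0395), a call lost with all 6 PBS mice (adjusted p = 0.0979) and without Ctrl replicate 5, PBS replicate 1 or 4 or any FLX replicate but 2 (adjusted p 0.0502 to 0.134). PBS replicates 1 to 5 had 55.27, 15.11, 20.04, 61.15 and 18.53 FPKM of Plk3, against 2.358 to 13.48 in Ctrl. PBS replicate 6 had 5.141 FPKM, inside the Ctrl range. Trp53inp1 rose by 0.66 (adjusted p = 0.0376), a call lost without any Ctrl replicate but 3 or without PBS replicate 1, 3 or 5 (adjusted p 0.0569 to 0.0901) and in 16 of 28 alternatives in all, and Gadd45a had 0.74 (adjusted p = 0.0531), which passed with all 6 PBS mice (0.0253) and without Ctrl replicate 1, FLX replicate 4 or PBS replicate 2 (adjusted p 0.0158 to 0.0466). In FLX versus PBS, Trp53inp1 and Gadd45a had -0.71 and -0.88, past the threshold with all 6 PBS mice (adjusted p = 0.0427 and 0.0358) and without Ctrl replicate 3 (0.0341 and 0.0392). Plk2 was lower in FLX than in Ctrl by -0.66 (adjusted p = 0.0445), a call lost without any single Ctrl replicate but 3, any FLX replicate, or PBS replicate 1 or 2 (adjusted p 0.0506 to 0.106), and with all 6 PBS mice (0.0565). It had -0.55 in PBS versus Ctrl (adjusted p = 0.108, and 0.00709 without PBS replicate 3). Phlda3 had 0.19 in FLX versus PBS and 1.36 in FLX versus Ctrl (adjusted p = 0.945 and 0.127), with FLX mice from 3.87 to 32.4 FPKM.

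Of 16 regulators of the members, 4 rose and none fell in PBS versus Ctrl, against the same shares of all genes (2.14% and 1.67%). This list, too, was written with earlier results of these data known, so its count is no test of enrichment. Trib1, a pseudokinase, had 1.76 ± 0.332 FPKM in Ctrl (SD, n = 6) and rose to 5.63 ± 3.12 in PBS (SD, n = 5), 1.71 on the log2 scale with an SE of 0.27 (adjusted p = 0.00149). PBS replicates 1 to 5 had 9.248, 3.167, 2.885, 8.766 and 4.077 FPKM of Trib1, with replicates 1 and 4 again the highest. Atf3, an immediate early and stress factor also in that list, rose by 2.68 (adjusted p = 0.00797). PBS replicates 1 to 5 had 11.9, 1.15, 1.09, 10.8 and 3.18 FPKM of Atf3 against 0.606 to 1.13 in Ctrl, so that replicates 1 and 4 stood far above the rest and replicate 3 lay inside the Ctrl range. Its call was lost with limma on log2(FPKM + 1) (adjusted p = 0.0663) and with a replicate block (0.0860). Foxo3, a transcription factor of Bcl2l11 and Bbc3, rose by 0.79 (adjusted p = 0.0156, and 0.0517 without PBS replicate 4), and was lower in FLX than in PBS by -0.79 (adjusted p = 0.0401). Leaving out Ctrl replicate 1 or 2, PBS replicate 1, 3 or 4, or any FLX replicate but 4 ended that last call (adjusted p 0.0532 to 0.130), which was lost in 16 of 28 alternatives in all. Stat3, a transcription factor of Mcl1 and Bcl2l1, rose by 0.62 (adjusted p = 0.0260), from 4.46 ± 0.563 to 6.78 ± 1.76 FPKM. It was at 18.7 FPKM in PBS replicate 6, and leaving out Ctrl replicate 1, 2, 4 or 5, or PBS replicate 1 or 4, ended its call (adjusted p 0.0502 to 0.0810), as did limma on FPKM (0.0516 to 0.0566), the fit of only these groups (0.0531) and a replicate block (0.0632). Foxo1 had 0.43 (adjusted p = 0.0505), which passed with all 6 PBS mice (0.0382) and without Ctrl replicate 3, PBS replicate 2 or FLX replicate 5 (adjusted p 0.00845 to 0.0441). Creb1, a factor of Bcl2 and Mcl1, was higher in FLX than in Ctrl by 0.46 (adjusted p = 0.0375), a call lost without any Ctrl replicate but 3 or without FLX replicate 1, 4, 5 or 6 (adjusted p 0.0537 to 0.0920). E2f1 had -0.12 in PBS versus Ctrl and -0.26 in FLX versus Ctrl (adjusted p = 0.852 and 0.560), Atf3 had -1.74 in FLX versus PBS and 0.94 in FLX versus Ctrl (adjusted p = 0.141 and 0.291), and Creb1 had 0.08 in FLX versus PBS (adjusted p = 0.891).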

How the data were processed

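Poly(A) RNA of 18 kidneys, 1 per mouse, was sequenced in read pairs from strand-marked libraries with molecular identifiers. The study's methods name fastp, HISAT-3N against GRCm38 and StringTie, whereas the submitters' processing notes name cutadapt 1.9, HISAT2 2.0.4, UMI-tools and StringTie 1.3.4d. For 32675 genes the authors deposited FPKM and estimated counts. No source used here says which tool made the counts. These deposited estimated counts hold only whole numbers, with a typical mouse having 720 genes at a value of 4 but 484.5 at 3 and 268 at 5 (medians), so they were treated as estimates. Totals per mouse ran from 48928823 to 79061296, and the precision given is the spread between mice.

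Groups came from the sample titles. The labels do not name the PBS mouse that the study removed, and replicate 6 was left out following an earlier treatment of these data. The counts went into edgeR 4.0.16 (R 4.3.3) with TMM scaling, filterByExpr and its two-sided quasi-likelihood test, all groups together. Genes were called at an adjusted p under 0.05 (Benjamini-Hochberg over all genes tested), and the script was tested on simulated data. An SE is the log2 fold change divided by the root of F. FPKM were compared by exact permutation tests of log2(FPKM + 0.1). Alternatives were DESeq2 1.42.0, limma 3.58.1 on log2 FPKM with pseudocounts of 0.1, 1 and 0.01, upper-quartile scaling, no filter, a replicate block, a fit of only the groups compared, all 6 PBS mice, only FLX replicates 1 and 2, and leaving out each mouse. All 6 PBS mice without Ctrl replicate 3 was added after seeing the data.

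The members and gene lists were chosen with earlier results of these data known. All members and further family genes were named, and from the other lists each gene past the threshold with 5 or 6 PBS mice and the largest rise and fall per comparison, except 1 gene that is not reported here. Coordinates are those of the files and equal GENCODE M21 for all 10 members. Promoters are from RefSeq.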

Additional observations from a re-analysis of the deposited data

Results flagged for a closer look

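Bcl2 in Ctrl replicate 3, at 1.217 FPKM, stood apart from the other Ctrl mice, which lay between 0.590 and 0.737 FPKM. The gap to the nearest mouse was 0.766 of the group's range. This was the single value to stand apart among 40 groups of values examined, and chance alone marks about 1 in 20 such groups. In the same mouse Bax was the lowest of all 18 mice, at 15.6 FPKM.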

How the results depend on the processing

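For the number of members called, PBS versus Ctrl had 2 (Mcl1 and Bcl2l1), which became 0 with a replicate block, 1 (Bcl2l1) when only the 2 groups were fitted, 0 at the study's threshold and 1 to 3 when 1 mouse was left out. FLX versus Ctrl had 0, with 0 to 2 when 1 mouse was left out and 2 (Bax and Bad) with all 6 PBS mice and without Ctrl replicate 3. FLX versus PBS had 0 under every alternative run. The replicate numbers did not pair the mice: deviations of mice with the same number correlated between -0.205 and 0.227, and 3 of 17 mice correlated best with their own number. With the block the adjusted p was 0.0632 for Bcl2l1 and 0.0599 for Mcl1. Among the other named genes, the block also ended the calls of Ripk1, Atf3, Stat3 and Trp53inp1 in PBS versus Ctrl, Bnip3 and Plk3 in FLX versus PBS, and Ripk1, Plk2 and Creb1 in FLX versus Ctrl. Over all genes, PBS versus Ctrl had 772 calls (1413 with DESeq2, 1662 without Ctrl replicate 3, 419 with the block), FLX versus PBS 147 (498, 250 and 67) and FLX versus Ctrl 744 (1615, 3099 and 258, and 354 with all 6 PBS mice). Of 840 values of the members under 28 alternatives, 804 kept direction and side of the threshold, 5 lost the call, 8 gained it and 23 changed sign. Of 1120 values of the other named genes, these numbers were 952, 130, 33 and 5. The cause of these changes was not tested.

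The sign changes were mostly of small log2 values. With all 6 PBS mice and without Ctrl replicate 3, Bcl2 had 0.10 in PBS versus Ctrl and 0.033 in FLX versus Ctrl, and Bid -0.020 in FLX versus Ctrl. Bcl2 in FLX versus PBS had 0.049, 0.021 and 0.056 with limma at pseudocounts of 0.1, 1 and 0.01, and Bid in FLX versus Ctrl -0.0078 with upper-quartile scaling. With FLX replicates 1 and 2 only, FLX versus PBS gave 0.056 for Bcl2, 0.15 for Bax, -0.065 for Bbc3 and -0.48 for Phlda3. Leaving out 1 mouse gave these ranges. In PBS versus Ctrl they were -0.19 to 0.081 for Bcl2, -0.10 to 0.015 for Bak1, -0.15 to 0.17 for Bcl2l11 and -1.28 to 0.058 for Fasl. In FLX versus PBS they were -0.099 to 0.050 for Bcl2, -0.34 to 0.066 for Pmaip1, -0.063 to 0.14 for Bad, -0.64 to 0.47 for Phlda3 and -0.0067 to 0.14 for Creb1. In FLX versus Ctrl they were -0.20 to 0.039 for Bcl2 and -0.019 to 0.10 for Bid.

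FLX replicates 3 to 6 held fewer counts than the other mice, and how far depth limits each member was not tested.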
